A study of Mus musculus with 9 samples.

Results

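The early growth response genes Egr1, Egr2, Egr3 and Egr4 and the nuclear receptor genes Nr4a1, Nr4a2 and Nr4a3 were followed across 9 libraries of mouse hippocampus. These 7 genes are all the members of both families named at the outset, matched to the deposited table by Ensembl identifier, and they stand among 14779 genes in that table. All 7 had enough counts to enter the test of 14696 genes. Choosing them by family name used no measured value, although earlier results of these data were known when the families were chosen.

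Both families belong to the immediate early genes, which a neuron transcribes within minutes of synaptic activity, without first making new protein. Calcium and MAP kinase signals reach their promoters through factors bound beforehand, such as CREB at the cAMP response element (CRE) and the serum response factor SRF with its partner Elk1 at the CArG box. Egr proteins bind GC-rich DNA through zinc fingers and are held in check by the co-repressors Nab1 and Nab2, while Nr4a proteins are orphan nuclear receptors whose activity follows their amount more than any known ligand. In hippocampus both families are studied for their part in long-lasting synaptic plasticity and memory storage, and Egr1 is a widely used marker of recently active pyramidal neurons.

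Polyadenylated RNA was sequenced from 3 groups of 3 mice. Air+IgG animals breathed air and received IgG, an immunoglobulin that serves as the antibody control. CIE+IgG animals went through CIE, chronic intermittent ethanol, and received the same control, and CIE+IL17 Ab animals went through CIE and received an antibody against the cytokine interleukin 17A. Strain, sex, age, the length of exposure and the time of dissection are not named in the labels.

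On GRCm38 in GENCODE M21, Egr2 (ENSMUSG00000037868) lies at chr10:67535475-67542188, Egr3 (ENSMUSG00000033730) at chr14:70077203-70082614 and Egr4 (ENSMUSG00000071341) at chr6:85511121-85513589. Egr1 has the identifier ENSMUSG00000038418. Nr4a1 (ENSMUSG00000023034) lies at chr15:101254269-101274795, Nr4a2 (ENSMUSG00000026826) at chr2:57106830-57124003 and Nr4a3 (ENSMUSG00000028341) at chr4:48045153-48086447. Egr4 and Nr4a2 are on the minus strand and the others on the plus strand.

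Promoter sequence was available for 5 of the 7 genes in the RefSeq table of build GRCm38.p6, and 3 stretches are shown. They hold letter matches to the CArG box or the CRE core TGACG. The windows of Nr4a2 and Egr4, not shown, hold core sites too. Egr2 is shown for the CArG box in its window, and Nr4a1 and Nr4a3 for their low levels in the antibody group. A link between sites and levels was not tested. Each stretch shown runs 5′ to 3′ on the gene's strand and holds no annotated exon of that gene. Of 5 listed starts of Egr2 the one at the first-numbered GENCODE transcript was taken. Capitals mark CArG boxes and the CRE core TGACG, read on either strand (CGTCA on the other).
Egr2, chr10:67537619-67537868, plus strand: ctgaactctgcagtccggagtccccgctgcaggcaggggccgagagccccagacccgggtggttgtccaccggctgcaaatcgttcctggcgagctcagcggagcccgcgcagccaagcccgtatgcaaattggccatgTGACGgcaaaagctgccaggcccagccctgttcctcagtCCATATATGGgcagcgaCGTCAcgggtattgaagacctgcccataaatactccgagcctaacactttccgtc
Nr4a1, chr15:101266596-101266845, plus strand: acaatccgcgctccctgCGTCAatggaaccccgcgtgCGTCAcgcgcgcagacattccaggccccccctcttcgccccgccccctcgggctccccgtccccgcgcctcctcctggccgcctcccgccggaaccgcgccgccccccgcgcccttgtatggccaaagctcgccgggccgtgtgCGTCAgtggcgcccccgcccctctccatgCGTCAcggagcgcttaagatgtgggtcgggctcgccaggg
Nr4a3, chr4:48045055-48045152, plus strand: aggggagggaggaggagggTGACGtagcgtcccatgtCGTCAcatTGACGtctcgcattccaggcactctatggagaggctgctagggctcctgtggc

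In the 250 bases before the start site, CRE core sites numbered 4 in each of Nr4a1, Nr4a2 and Nr4a3, and 2 in each of Egr2 and Egr4. The fourth of Nr4a3 lies past the stretch shown, inside an exon of another annotated start. Among 32851 windows of the same length, which include several starts of many genes, 17.8% held at least 1 core site, 3.9% at least 2 and 0.137% at least 4. The palindrome TGACGTCA, in which the core is read on both strands, was in none of the 5 windows and in 1.55% of all. A CArG box was found in Egr2 and in 1.47% of all windows, the Egr site GCGNGGGCG in Nr4a1 and Nr4a2 and in 4.7%, and the Nr4a site AAAGGTCA in none of the 5 and in 1.34%, both strands being searched each time. These matches describe letters in a window, and no binding was measured.

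Library totals lay between 7372658 and 11894628 estimated counts. Lars2 took 7.13% of counts in Air+IgG replicate 2 and 6.72% in CIE+IL17 Ab replicate 1, and at most 0.0207% in any other library. The descriptions carry numbers of unstated meaning, 37 to 39 for 1 library of each group and 54 to 60 for the remaining 6, and the first 3 were the deepest. No gene of the CA1 and dentate lists was at 0 counts in any library, and of the CA2 and CA3 list Iyd was at 0 in CIE+IL17 Ab replicate 1. Markers of thalamus and habenula, structures that lie beside the hippocampus, were high in all 3 CIE+IL17 Ab libraries, as described with the results they touch.

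The Nr4a genes and Egr1 were the abundant members in air-kept mice, and the other Egr genes followed at lower levels. Levels of different genes are compared here as CPM per kilobase, where CPM is the count scaled to a common library total with TMM factors and the length is the summed exon length of the gene. In Air+IgG, Egr1 stood at 14.0 ± 3.33 CPM per kilobase (SD, n = 3), Nr4a1 at 13.0 ± 3.32, Nr4a3 at 12.6 ± 2.66 and Nr4a2 at 11.9 ± 3.16. The libraries of each of these genes overlap with those of the next in the order. Egr3, at 3.94 ± 1.34, lay below all 4, Egr4 at 2.14 ± 0.485 lay below Egr3, and Egr2, best known from hindbrain patterning and peripheral myelination, was lowest at 0.932 ± 0.260, with no overlap at these 3 steps.

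The order of levels from Egr3 downwards was the same in CIE+IgG, again without overlap between neighbours. In CIE+IL17 Ab, Egr1 led at 7.46 ± 1.81 CPM per kilobase without overlap with the next gene, Nr4a2, at 4.09 ± 2.36. Below Nr4a2 every neighbour in that group overlapped with the next.

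The first comparison asks whether ethanol exposure alone moved these genes, between CIE+IgG and Air+IgG. All 7 genes had overlapping libraries in these 2 groups, whereas 9.44% of all tested genes did not overlap, 4.80% lower and 4.64% higher with ethanol. Egr1 had 51.7, 79.6 and 56.4 CPM in Air+IgG and 49.7, 72.3 and 66.2 CPM in CIE+IgG, a log2 fold change of 0.0061 (standard error, SE, 0.223). Its means, 62.6 ± 14.9 and 62.7 ± 11.7 CPM, were almost equal. Egr4, an Egr gene also known for its need in male fertility, had 3.47, 5.51 and 4.83 CPM against 5.16, 5.15 and 5.41.

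Nr4a2, also called Nurr1 and known as a factor of dopamine neuron development, had the largest log2 difference of the 7 and the widest spread in CPM within CIE+IgG, 32.1 ± 20.9. It had 48.3, 35.2 and 60.9 CPM in Air+IgG and 21.7, 56.2 and 18.6 CPM in CIE+IgG, so that 2 CIE+IgG libraries lay below every control and the other lay above the control median. Its log2 fold change of -0.59 (SE 0.537) moved to -1.27 when CIE+IgG replicate 2 was left out. It was -0.38 or -0.32 when CIE+IgG replicates 1 or 3 were dropped and -0.39 when Air+IgG replicate 3 was dropped, and it was called in none of these fits.

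In edgeR's quasi-likelihood test, 0 of the 7 differed with ethanol at an adjusted p under 0.05, the rule for a call, and 0 had an unadjusted p under 0.05. The count was also 0 in DESeq2 and in limma-voom, and among all tested genes 0.00% were called in edgeR and 2.76% had an unadjusted p under 0.05. The 7 log2 fold changes ran from -0.59 to 0.19 with a median of -0.19, 5 below 0 and 2 above, where 52.0% of all genes lay below 0 and their median was -0.0073. Egr1, Egr2, Egr3 and Nr4a3 changed sign in some fits with libraries left out. The 95% intervals show what these libraries could miss. For Egr1 the interval reached from 0.707 to 1.43 times the control level and for Nr4a1 from 0.519 to 1.34 times, while for Nr4a2 it reached from 0.284 to 1.55 and for Egr4 from 0.446 to 2.92.

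**Figure D1:**
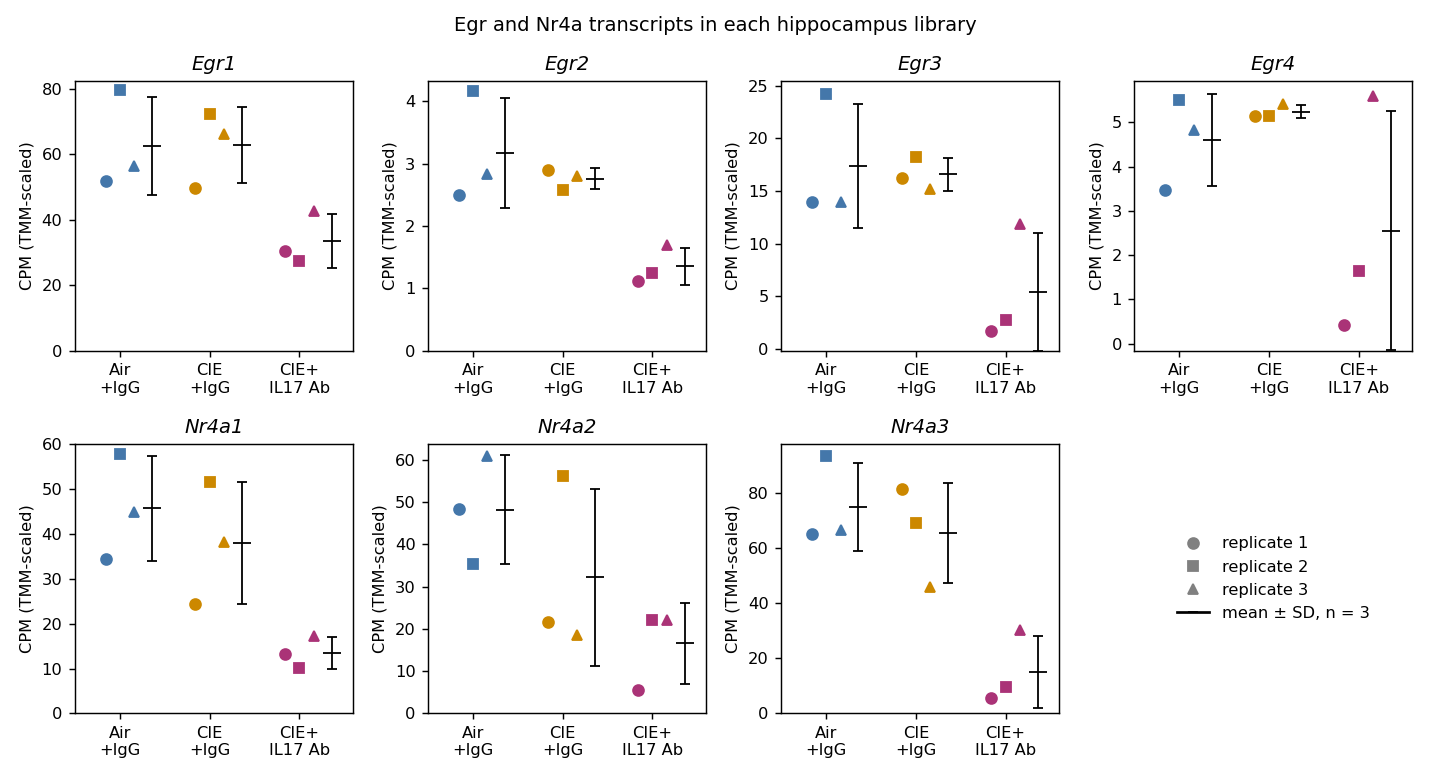
CPM of each gene (vertical axis, linear, TMM-scaled) in the 9 libraries, with groups on the horizontal axis, symbols for replicates and the mean ± SD of 3 libraries in black. Air+IgG and CIE+IgG overlap in every panel, and CIE+IL17 Ab replicate 3 lies apart from replicates 1 and 2 for Egr3, Egr4 and Nr4a3.

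The second comparison sets the antibody against its IgG control, both after ethanol. All 7 genes had lower means in CIE+IL17 Ab than in CIE+IgG, and for 5 of them every antibody library lay below every CIE+IgG library. One gene, Nr4a1, passed the test. The Egr genes are taken first.

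Egr1 had 30.3, 27.4 and 42.7 CPM in the antibody libraries, all below the lowest CIE+IgG library at 49.7. Its mean of 33.5 ± 8.14 CPM against 62.7 ± 11.7 gave a log2 fold change of -0.91 (SE 0.227), which missed the threshold (adjusted p = 0.0668 in edgeR's test). Egr2 had 1.11, 1.25 and 1.69 CPM against 2.90, 2.58 and 2.80, again with no overlap, and a log2 fold change of -1.02 (adjusted p = 0.0861 in edgeR's test). These values rest on few reads, since Egr2 had between 8 and 31 estimated counts in any library.

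Egr3 and Egr4 split the antibody group. Egr3, which acts with Egr1 in neurons and is also needed for muscle spindles, had 1.67 and 2.74 CPM in antibody replicates 1 and 2 but 11.8 in replicate 3, against 16.2, 18.3 and 15.2 in CIE+IgG. Egr4 had 0.417 and 1.64 CPM in replicates 1 and 2 and 5.59 in replicate 3, the highest value of Egr4 in all 9 libraries. The value of replicate 1 rests on 3 counts, with a 95% exact Poisson interval of 0.619 to 8.77 counts that covers counting error only. With this spread the log2 fold changes of -1.60 for Egr3 and -1.01 for Egr4 had SEs of 0.586 and 0.617, and neither passed (adjusted p = 0.157 and 0.376 in edgeR's test).

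Of the Nr4a genes, Nr4a1 and Nr4a3 separated the groups and Nr4a2 did not. Nr4a1, also called Nur77 and induced in many cell types besides neurons, had 13.2, 10.2 and 17.2 CPM in the antibody libraries and 24.4, 51.5 and 38.2 CPM in CIE+IgG. The groups do not overlap, and the fall from 38 ± 13.6 to 13.5 ± 3.52 CPM passed, with a log2 fold change of -1.50 (SE 0.315, adjusted p = 0.0465 in edgeR's test). Nr4a3, also called Nor1, had 5.70, 9.71 and 30.2 CPM with the antibody and 81.7, 69.3 and 45.8 CPM in CIE+IgG. Its log2 fold change of -2.10 was the largest of the 7, with an SE of 0.520, and it missed the threshold (adjusted p = 0.0664 in edgeR's test).

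Nr4a2 overlapped between these groups. The antibody libraries had 5.56, 22.2 and 22.2 CPM, and 2 of the 3 CIE+IgG libraries, at 21.7 and 18.6 CPM, lay within that range. Its log2 fold change of -0.92 (SE 0.553, adjusted p = 0.369 in edgeR's test) shrank to -0.25 without CIE+IgG replicate 2 and to -0.53 when antibody replicate 1 was left out.

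In this comparison 1 of 7 genes was called, and it was lower with the antibody, where 1.41% of all tested genes were called lower, 1.78% higher and 3.18% in either direction. An unadjusted p under 0.05 was found for 5 of the 7 and for 22.3% of all genes. The 5 genes with no overlap compare with 13.2% of all tested genes that were lower with no overlap, 12.7% higher and 25.9% in all. The median log2 fold change of the 7 was -1.02, from -2.10 to -0.91, and over all genes it was 0.015, with 47.8% below 0. The call of Nr4a1 depended on which libraries were in the fit: its adjusted p was 0.0806, 0.0562 and 0.0840 when Air+IgG replicates 1, 2 or 3 were dropped, 0.120, 0.146 and 0.0593 when those of CIE+IgG were, and 0.0875 and 0.169 when antibody replicates 1 or 2 were. In these fits its log2 fold change stayed between -1.73 and -1.22. With antibody replicate 3 left out, 5 of the 7 were called (Egr1, Egr3, Egr4, Nr4a1 and Nr4a3), with log2 fold changes of -2.86 for Egr3, -2.22 for Egr4 and -3.05 for Nr4a3, and 1313 genes were called in all. Egr4 without antibody replicate 1 had -0.57. DESeq2 called 4, Egr1, Egr3, Nr4a1 and Nr4a3, and limma-voom called Nr4a1 and Nr4a3.

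Within the libraries of one label range the direction was the same for most of the genes. Among numbers 54 to 60, with 2 libraries a group, all 7 had lower means with the antibody than in CIE+IgG, 5 without overlap, and 0 were called in edgeR's test of those 6 libraries. Nr4a1 there had a log2 fold change of -1.31 (adjusted p = 0.272 in edgeR's test). Among numbers 37 to 39, with 1 library a group and so no test, 6 of 7 were lower with the antibody. The exception was Nr4a2, at 22.2 against 18.6 CPM. The shares of all genes that were lower, or without overlap, were not worked out within the label ranges. These counts of the 7 genes therefore have no background to be read against.

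**Figure D2:**
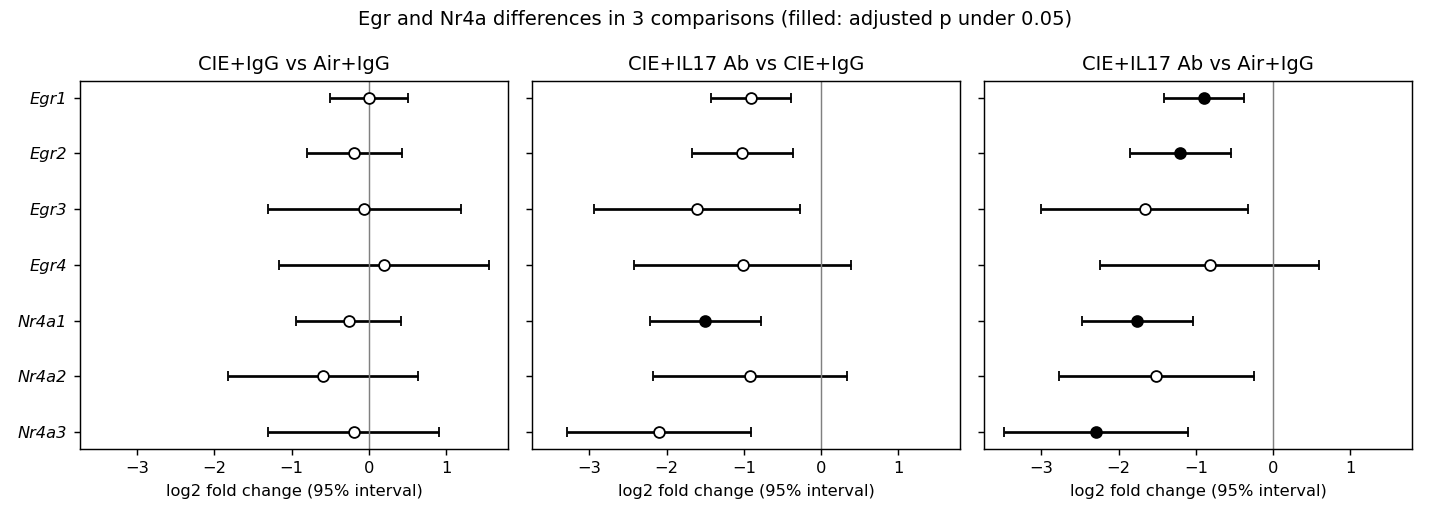
Log2 fold change of each gene (horizontal axis) with its 95% interval, in panels for the 3 comparisons, filled where the adjusted p was under 0.05. The ethanol panel has all intervals across 0, and filled points are Nr4a1 in the middle panel and Egr1, Egr2, Nr4a1 and Nr4a3 in the right panel.

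The third comparison sets the antibody group against air controls, asking how far it stood from mice without ethanol. It uses the same antibody libraries as the second, so its values are not a separate test of them. Against Air+IgG, 4 of 7 genes fell, Egr1 and Egr2 of the zinc finger family and Nr4a1 and Nr4a3 of the receptor family. Nr4a1 fell to 13.5 ± 3.52 from 45.7 ± 11.6 CPM, or by a log2 fold change of -1.76 (SE 0.316, adjusted p = 0.0156 in edgeR's test). Nr4a3 fell from 75.1 ± 15.9 CPM, with 65.1, 93.5 and 66.8 CPM in the control libraries, to 15.2 ± 13.1 CPM.

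The log2 fold change of Nr4a3 was -2.29 (adjusted p = 0.0281 in edgeR's test), that of Egr2 was -1.21 (adjusted p = 0.0311) and that of Egr1 was -0.90 (adjusted p = 0.0364). Egr3, with 14.0, 24.2 and 13.9 CPM in the controls, and Nr4a2 also had no overlap with the antibody libraries but did not pass, with log2 fold changes of -1.66 and -1.51 (adjusted p = 0.0932 and 0.102 in edgeR's test). Egr4 overlapped through antibody replicate 3 and had -0.82 (adjusted p = 0.403).

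In the background of this comparison 6.71% of all tested genes were called lower, 6.83% higher and 13.5% in either direction, and 18.1% were lower with no overlap, against 6 of the 7 genes (35.3% did not overlap in either direction). An unadjusted p under 0.05 was found for 6 of the 7, all lower, and for 32.0% of all genes, 15.7% lower. All 7 were below 0, with a median of -1.51, as were 48.4% of all genes, whose median was 0.012. Without Air+IgG replicate 1 the call remained for Nr4a1 alone (adjusted p = 0.0453 in edgeR's test), and without Air+IgG replicates 2 or 3 or antibody replicate 2 it was lost for all 4 genes, with adjusted p of Nr4a1 of 0.0537, 0.0537 and 0.0634. Without antibody replicate 1 the calls of Egr1 and Egr2 were lost (adjusted p = 0.0714 and 0.0516), and without CIE+IgG replicate 1 that of Egr2 (adjusted p = 0.0545). Without antibody replicate 3, Egr3 and Egr4 were called too, at -2.92 and -2.03. Without both libraries rich in Lars2, 0 of the 7 were called in edgeR's test and all 7 were still below 0, with Nr4a1 at -1.55 and Nr4a3 at -1.75. In the libraries numbered 54 to 60, 0 were called and all 7 had lower means, and in those numbered 37 to 39 all 7 were lower. Here too the share over all genes was not worked out.

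Antibody replicates 1 and 2 also differed from the control libraries in the make-up of each family, and replicate 3 in that of the Egr family. Egr1 led the Egr family in every library, and it made up 67.6, 65.7 and 66.8% of the summed CPM per kilobase in Air+IgG and 61.5, 68.8 and 68.5% in CIE+IgG, but 88.2, 77.7 and 62.2% in antibody replicates 1, 2 and 3. Shares of a family add up to its whole, so a higher share of Egr1 lowers the rest. Egr3 had 4.94, 7.91 and 17.5% in the antibody libraries and 16 to 20.4% elsewhere. Replicates 1 and 2 thus had a lower share of Egr3 than any control library, and replicate 3 lay inside the control range of Egr3. Egr4 had 2.54, 9.73 and 17.0% in antibody replicates 1, 2 and 3 and 9.47 to 13.3% elsewhere. Its share was thus below every control library in replicate 1, inside their range in replicate 2 and above them all in replicate 3.

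Nr4a3 made up 15.6, 16.3 and 32.7% of the Nr4a sum in the antibody libraries, against 33.4, 38.3 and 28.6% in Air+IgG and 52.6, 28.9 and 33.1% in CIE+IgG. Nr4a1 led in antibody replicate 1 with 61.8%, and Nr4a2 led in replicates 2 and 3 with 54.7 and 35.5%. The leading gene changed among control libraries too. Nr4a2 led in Air+IgG replicates 1 and 3 with 36.5 and 38.5%. Nr4a1 led in Air+IgG replicate 2 and CIE+IgG replicates 2 and 3 with 40.4, 36.6 and 47.1%, and Nr4a3 in CIE+IgG replicate 1. These shares are descriptions with no test, and in antibody replicate 1 they rest on 41 counts of Nr4a3 and 40 of Nr4a2.

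The 7 genes varied by unequal amounts across the 9 libraries. Likeness was measured as the root mean square difference of log2 CPM after each gene was centred on its mean over the libraries, so that 0 is an identical profile. The closest pair was Egr1 and Egr2 at 0.204, followed by Egr3 and Nr4a3 at 0.314, Egr1 and Nr4a1 at 0.378 and Egr3 and Egr4 at 0.414. The pair farthest apart was Egr1 and Nr4a3 at 0.928. Nr4a2 was no closer than 0.733 to any other of the 7. This measure is not scaled to how much each gene varied. The root mean square about a gene's own mean was 0.499 for Egr1, 0.531 for Egr2 and 1.34 for Nr4a3. A large difference between 2 genes can therefore come from unequal size of their changes as well as from unlike profiles.

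Among 14542 other genes with a mean of at least 1 CPM, the nearest to Egr1 was Skil at 0.155 and the nearest to Egr2 was Arl15 at 0.119. Garem1 and Lzts3 came next for Egr1, at 0.162 each, and for Egr2 the AMPA receptor subunit gene Gria2 at 0.126 and Numbl at 0.145. Egr3 lay nearest to Zfp831 at 0.167, then Grasp at 0.186 and the ryanodine receptor gene Ryr1 at 0.216, and Egr4 to the proliferation marker Mki67 at 0.175, then Gm10855 at 0.290 and the cation channel gene Trpc4 at 0.293.

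Nr4a1 was nearest to another pair of immediate early genes, the AP-1 subunit gene Junb at 0.260 and Arc, which encodes a regulator of AMPA receptor traffic, at 0.266, followed by Pou3f1, a CA1 marker, at 0.301. Nr4a3 was nearest to Mas1, an angiotensin-related receptor gene, at 0.149 and to Ptgs2, the inducible cyclooxygenase, at 0.159, with Slc26a4 at 0.217. Nr4a2 had no neighbour as close, with Trabd2b at 0.322, Klf5 at 0.336 and Cemip at 0.356. All 9 libraries, with their group differences and their make-up, are shared by the genes compared.

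Among partners of the 2 families, 1 co-repressor gene passed the test in 1 comparison. Nab2, a co-repressor whose gene is itself an Egr target, had 9.45, 13.5 and 22.1 CPM with the antibody, below the CIE+IgG range of 26.8 to 32.0 CPM. It did not pass against CIE+IgG (log2 fold change -0.97, adjusted p = 0.109) and fell against Air+IgG (-1.08, adjusted p = 0.0477, both in edgeR's test). Nab1, the other co-repressor, had -0.015 and 0.11 in these comparisons. Of the retinoid X receptor genes, whose proteins pair with Nr4a1 and Nr4a2, 0 of 3 were called in any comparison in edgeR's test and 0 had an unadjusted p under 0.05, and Rxra, with the smallest p against CIE+IgG, had 0.21.

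Of 25 kinases and factors that act upstream of both families, 2 fell and 0 rose against CIE+IgG, and 21 had values below 0, with a median of -0.11. Among all tested genes 1.41% were called lower and 1.78% higher in this comparison, and 47.8% were below 0. Map2k1, which encodes a kinase of the MAP kinase cascade, fell to 166 ± 31.1 from 254 ± 15.8 CPM, or by a log2 fold change of -0.61 (adjusted p = 0.0493 in edgeR's test). Against Air+IgG, 5 fell and 1 rose, where 6.71% of all tested genes were called lower and 6.83% higher. Srf was among the 5, at 17.4, 21.8 and 29.9 CPM in the antibody libraries and 33.4 to 53.4 in the controls, and the gene that rose was Rps6ka1, a kinase gene, by 0.54 on the log2 scale. Between CIE+IgG and Air+IgG 0 of 25 were called in edgeR's test and 0 had an unadjusted p under 0.05, with Rps6ka2 at 0.15.

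Of 8 genes reported as Egr targets in neurons, 2 fell and 1 rose against CIE+IgG. The shares of all tested genes were 1.41% called lower and 1.78% higher. Arc had 29.9, 28.2 and 55.8 CPM with the antibody and 106, 183 and 111 in CIE+IgG, a log2 fold change of -1.81 (adjusted p = 0.0460 in edgeR's test). The synapsin gene Syn2 fell by 0.54 on the log2 scale, and Ache, the acetylcholinesterase gene, rose by 0.85. Against Air+IgG, 3 fell, Arc, Syn2 and Nab2, and Ache rose, where 6.71% of all genes were called lower and 6.83% higher. None of 8 endoplasmic reticulum chaperone genes reported under Nr4a control in hippocampus was called in any comparison in edgeR's test. Against CIE+IgG 0 of them had an unadjusted p under 0.05, and against Air+IgG 1 had, Pdia6 at -0.26 (adjusted p = 0.0949). Over all tested genes 22.3% and 32.0% had.

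Other activity-induced genes gave values on both sides of 0 with the antibody. Of 7 AP-1 subunit genes, 1 fell against CIE+IgG, Fosl2, from 43.1 ± 13.1 to 9.74 ± 2.79 CPM, and 6 of 7 were below 0. Of 35 further activity-induced genes tested, 6 fell and 0 rose, with 20 below 0, 15 above and a median of -0.30. In this comparison 1.41% of all tested genes were called lower and 1.78% higher, and 47.8% were below 0. The 6 were Arc, Homer1, Plk2, Dusp5, Dusp6 and Klf10, of which Klf10, a zinc finger repressor, fell by 1.64 on the log2 scale. Genes not called ranged widely: Npas4, induced selectively by calcium entry, had 0.036 (SE 0.306), Dusp1 had 0.025 and Per1 had 0.079, whereas Fos had -0.32, Fosb -0.75, Junb -1.32 and Ier2 0.60.

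Npas4 had 5.98, 9.16 and 16.2 CPM in antibody replicates 1, 2 and 3 and 8.81, 11.4 and 10.6 CPM in CIE+IgG, so of these 6 libraries the lowest and the highest were both in the antibody group. The highest of all 9 was Air+IgG replicate 3 at 16.4 CPM. Against Air+IgG, 3 AP-1 genes fell, Fosl2, Junb and Jun, and of the 35 further genes 12 fell and 1 rose, Nptx2, a neuronal pentraxin, by 0.78. The shares called there among all tested genes were 6.71% lower and 6.83% higher. Between CIE+IgG and Air+IgG 0 of these 42 genes were called in edgeR's test, with 0 at an unadjusted p under 0.05, and Jund and Gadd45b, those with the smallest p of their lists, had -0.23 and -0.54.

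**Figure D3:**
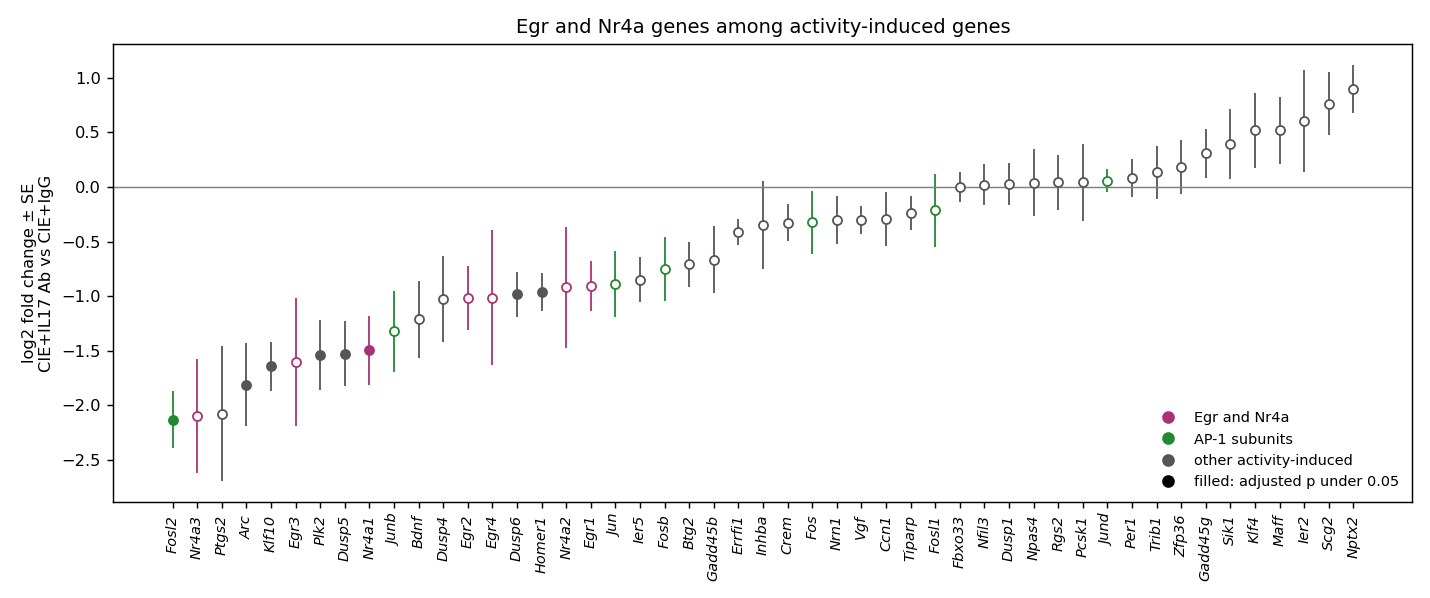
Log2 fold change with its standard error (vertical axis) of the 7 Egr and Nr4a genes, 7 AP-1 genes and 35 further activity-induced genes between CIE+IL17 Ab and CIE+IgG, in order of size, filled where the adjusted p was under 0.05. The 7 Egr and Nr4a genes all lie at -0.91 or lower, and Npas4, Dusp1 and Per1 lie close to 0.

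CA1 and dentate markers had lower medians with the antibody, as the 2 families had. The CA1 list had summed levels of 171, 203 and 318 CPM in antibody replicates 1, 2 and 3, against 494 to 690 in CIE+IgG and 684 to 793 in Air+IgG. Against CIE+IgG 5 of its 10 genes fell and 0 rose, with a median log2 fold change of -1.85, below the -1.02 of the 7 genes. Over all tested genes 1.41% were called lower and 1.78% higher. The most abundant genes of the CA1 list, Mpped1 and Man1a, had 33.1 ± 14.5 and 62.9 ± 30.5 CPM with the antibody. In CIE+IgG they had 136 ± 48.5 and 117 ± 18.3 CPM. Dcn of the CA1 list is also on the meningeal list, and had 28.9 ± 6.93 CPM with the antibody and 24.5 ± 9.53 in CIE+IgG.

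Dentate granule cell markers ranked the antibody libraries as Egr2, Egr3, Egr4 and Nr4a3 did. The order was not particular to them, since the sums of the CA1, upstream and Egr target lists gave it too. The summed dentate level was 450, 841 and 1045 CPM in antibody replicates 1, 2 and 3. It was 897 to 1413 in CIE+IgG and 1032 to 1970 in Air+IgG, so antibody replicate 1 was far below every control and antibody replicate 3 inside their range. Of 15 genes, 0 were called against CIE+IgG in edgeR's test and 4 had an unadjusted p under 0.05, all lower, with a median of -0.74. Among all tested genes 22.3% had an unadjusted p under 0.05 in that comparison, 11.4% lower. The highest dentate level, 1970 CPM, was in Air+IgG replicate 2, the library with the highest value for 5 of the 7 genes. The lowest was in antibody replicate 1, which held the lowest value for 5 of the 7. These are also the 2 libraries rich in Lars2, at 7.13 and 6.72% of counts, and those with the lowest choroid plexus markers.

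CA2 and CA3 markers differed from both. Their summed level was 489, 900 and 802 CPM in antibody replicates 1, 2 and 3 and 423 to 576 in CIE+IgG, which overlap, and of 13 genes 1 rose, Cpne9 by 2.21, and 1 fell, Grik4 by 1.15 on the log2 scale. The median of that list was -0.22, with 5 genes above 0, and against Air+IgG 4 rose and 3 fell. Called among all tested genes were 1.78% higher and 1.41% lower against CIE+IgG, and 6.83% higher and 6.71% lower against Air+IgG. Much of the sum in antibody replicates 2 and 3 was Prkcd, which is also on the thalamic and habenular list. Prkcd had 55.3, 357 and 270 CPM in antibody replicates 1, 2 and 3 and 65.9, 26.1 and 106 CPM in CIE+IgG.

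Thalamic and habenular markers were higher with the antibody, at 934 to 1798 CPM with the antibody, 247 to 380 in CIE+IgG and 200 to 282 in Air+IgG. Of 12 tested, 9 rose against CIE+IgG and all 12 against Air+IgG, with medians of 2.96 and 3.25. Of all tested genes 1.78% and 6.83% were called higher in these comparisons. Pou4f1, a defining factor of habenular neurons, was at 0 counts in replicates 1 and 2 of both Air+IgG and CIE+IgG and in no antibody library. The most abundant, Rora and Prkcd (the latter also in the CA2 and CA3 list), had 425 ± 146 and 227 ± 155 CPM with the antibody and 117 ± 19.1 and 66.1 ± 40.1 CPM in CIE+IgG.

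The part of these tissue markers in the Egr and Nr4a differences was not tested, and in bulk tissue fewer cells of a type and less RNA per cell cannot be told apart. Choroid plexus markers, at 446 CPM in antibody replicate 1 and 846 in Air+IgG replicate 2, were at least 3781 in each other library. Striatal markers were at 1534 CPM in CIE+IgG replicate 3 and 988 in antibody replicate 3, and at most 399 elsewhere.

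**Figure D4:**
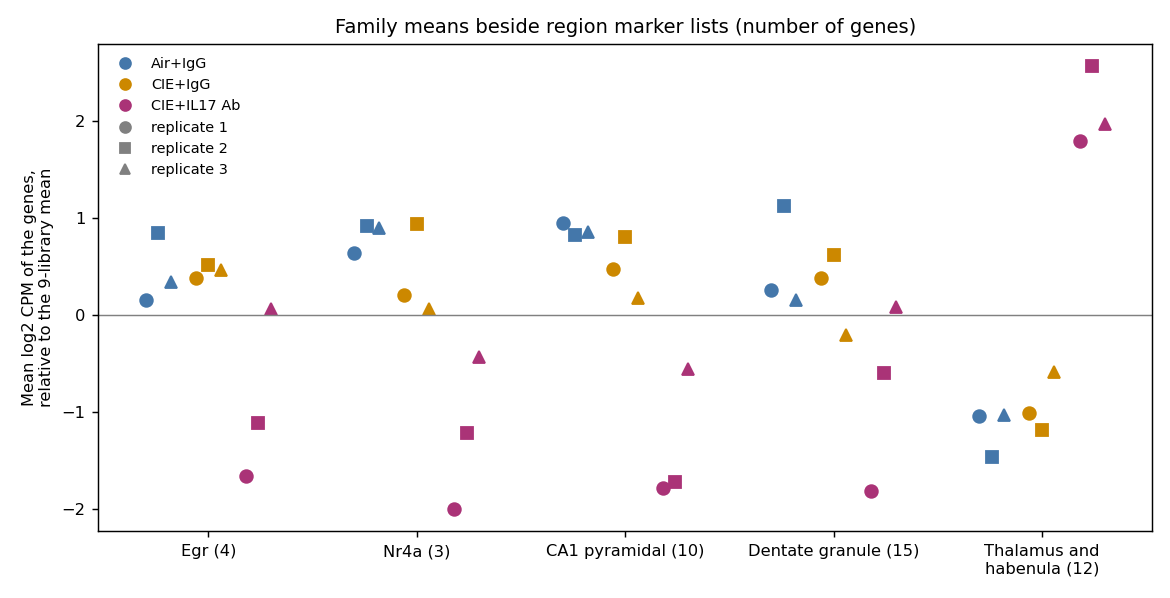
Mean log2 CPM of the genes in each list relative to their mean over 9 libraries (vertical axis), for both families and 3 region marker lists, with colours for groups and symbols for replicates. Antibody replicate 1 is lowest and replicate 3 highest of its group for the Egr, Nr4a, CA1 and dentate lists, and all 3 antibody libraries are above the others for thalamus and habenula.

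Of 15 cell type lists, 7 had summed levels without overlap between CIE+IL17 Ab and CIE+IgG. Beside CA1 and thalamus these were astrocytes and microglia, lower with the antibody, and endothelial, pericyte and smooth muscle, and meningeal lists, higher with the antibody. Astrocyte Slc1a2 had 3670 ± 531 against 5177 ± 499 CPM and Aldoc 664 ± 235 against 557 ± 24.6. The astrocyte sum was lower although 7 of its 10 genes lay above 0, with a median of 0.30, and the gene called, Gja1 of astrocyte gap junctions, rose by 0.46 on the log2 scale. Microglial Csf1r had 81.0 ± 4.19 against 106 ± 0.518. Endothelial Flt1 had 88.1 ± 6.12 against 75.3 ± 4.01 and Slco1a4 77.5 ± 6.06 against 64.8 ± 9.37, and Rgs5 and Vtn of the vessel wall had 102 ± 14.4 and 55.5 ± 8.37 against 87.6 ± 7.03 and 42.6 ± 0.799.

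Between CIE+IgG and Air+IgG 2 lists were apart, the oligodendrocyte list, higher, and the meningeal list, lower. Mbp, a myelin gene, had 2396 ± 386 CPM against 1794 ± 194. Ptgds and Dcn (the latter also in the CA1 list) had 196 ± 43.3 and 24.5 ± 9.53 against 619 ± 241 and 54.1 ± 13.1. With the antibody these 3 had 2921 ± 224, 321 ± 31.7 and 28.9 ± 6.93 CPM.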

How the data were processed

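Expected counts per gene, which are estimates that need not be whole, were deposited by the authors without scaling between libraries, and STAR 2.5.1a, RSEM 1.3.0 and GRCm38 appear among the tools and builds per the submitters' processing notes. The sources used here do not name the annotation release or a low-count filter. Of 63 values of the 7 genes, 5 had decimals. Symbols, coordinates and exon lengths came from GENCODE M21 on GRCm38, which named 14628 identifiers.

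Counts were rounded, kept with filterByExpr by group (minimum count 10), scaled with TMM and tested with edgeR 4.0.16 in R 4.3.3 (glmQLFit, robust=TRUE) on all 9 libraries, with 6 residual degrees of freedom and a common biological coefficient of variation of 0.189. Adjusted p-values are Benjamini-Hochberg over all 14696 tested genes, and genes under 0.05 were called. Log2 CPM used a prior count of 2. Standard errors are the log2 fold change over the square root of F, and 95% intervals use the moderated degrees of freedom. The fit was tested on simulated data. Alternatives included DESeq2 1.42.0 and limma 3.58.1. No 2 libraries were duplicates (lowest chi-square per degree of freedom 3.93).

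Members and lists were chosen with earlier results of these data known. Named were all 7 genes, called members of each list (at most 4 by smallest p, or the single smallest p), the 3 nearest genes by profile, and the 2 most abundant genes of cell type lists that did not overlap. Further list members and the values of Npas4, Dusp1, Per1, Fos, Fosb, Junb and Ier2 were named after their values were seen. Some genes that this rule names are not reported here.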

Additional observations from a re-analysis of the deposited data

How the results depend on the processing

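Across 20 alternatives, the 7 genes were below 0 in all 139 values against CIE+IgG and all 139 against Air+IgG with the antibody, where Egr4 had no value under the strict filter (CPM above 1 in all libraries). Genes called among the 7 (1 against CIE+IgG, 4 against Air+IgG) numbered 4 with DESeq2 and 2 with limma-voom against CIE+IgG. They numbered 0 and 1 with only the 2 groups compared, 0 and 0 in label numbers 54 to 60, 0 and 0 without both libraries rich in Lars2, and ranged from 0 to 5 and 0 to 6 with 1 library left out. Over all genes, 468 calls against CIE+IgG became 1481 with DESeq2, 776 with a term for label number, 1 with the 2 groups and 1 in numbers 54 to 60, and 0 to 1313 with 1 library left out. The 1990 against Air+IgG became 1192 with the 2 groups, 2 in numbers 54 to 60, 1067 without the libraries rich in Lars2, and 0 to 2305 with 1 left out. With the replicate number as a block, these calls were 0 and 1 of the 7 genes and 14 and 571 of all. Replicate numbers share only a number: 2 of 9 same-numbered pairs had a correlation of deviations over 0.1 (from -0.27 to 0.249), and 3 of 9 libraries correlated best with their own number. Between CIE+IgG and Air+IgG 0 of the 7 were called in any alternative, and 6 genes in all with DESeq2.

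Of 139 ethanol values, 11 changed sign. With 1 library left out, Egr1 ranged from -0.11 to 0.208, Egr2 from -0.328 to 0.0409, Egr3 from -0.198 to 0.24 and Nr4a3 from -0.385 to 0.0119. Egr1 was negative when Air+IgG replicates 1 or 3 or CIE+IgG replicates 2 or 3 were dropped, Egr2 and Egr3 positive when Air+IgG replicate 2 was, and Nr4a3 when CIE+IgG replicate 3 was. Egr1 had -0.0998 in numbers 54 to 60, Egr3 had 0.00782 with limma-voom, and Egr2 had 0.0468 and Egr3 0.245 without the libraries rich in Lars2. The cause was not tested. Egr2 and Egr4 are limited by depth, with down to 8 and 3 counts in a library.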
